A study of Mus musculus with 2 samples.

Results

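The miR-7, miR-129 and miR-218 families were examined in small RNA sequenced from the forebrain of newborn mice. The members were the 7 hairpin genes of the count tables whose Ensembl identifiers carry the symbols Mir7-1, Mir7-2, Mir7b, Mir129-1, Mir129-2, Mir218-1 and Mir218-2, out of 1973 genes, and all 7 were found. The samples form 1 group of 2 pups at postnatal day 0 of strain B6NCrl, untreated as far as the labels say. Each library came from the single forebrain of 1 pup, pup 1 or pup 3, and both carry the same donor record. Sex was not collected. The design has no second condition, so it gives levels, their spread between the pups and the balance between the copies of each family.

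A microRNA is cut from a hairpin precursor, and either arm of the hairpin, called 5p or 3p, can leave a mature product of about the length of the reads sequenced here. The mature product pairs with messenger RNAs mainly through its seed, bases 2 to 8, and lowers their output. miR-7 is found in neurons and in neuroendocrine cells of the hypothalamus and pituitary. It is known to repress Pax6 and to bind the circular RNA Cdr1as at many sites. miR-129 is enriched in brain and is known to repress the potassium channel gene Kcna1. miR-218 is best known from motor neurons of hindbrain and spinal cord. It represses the Robo receptors, whose ligands include the secreted proteins of its own host genes, Slit2 and Slit3.

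The copies of each family encode products that are partly identical, which matters for counts per hairpin. The sequences are those of RefSeq on GRCm38.p6, where all 7 hairpins were matched and had the same coordinates and letters as in GENCODE M21. They list 10 distinct mature products with 8 distinct seeds. Each is given 5′ to 3′ with the seed in capitals, first the products of the miR-7 family:
miR-7a-5p: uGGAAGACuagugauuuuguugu
miR-7b-5p: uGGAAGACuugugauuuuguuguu
miR-7a-1-3p: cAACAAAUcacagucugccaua
miR-7a-2-3p: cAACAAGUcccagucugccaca
miR-7b-3p: cAACAAGUcacagccagccuca

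All 3 miR-7 hairpins share the 5p seed GGAAGAC. Mir7-1 and Mir7-2 encode the same miR-7a-5p, and miR-7b-5p of Mir7b differs from it by A10U, counted from the 5′ end with the base of miR-7a-5p first. At 24 bases against 23, miR-7b-5p also has a further U at its 3′ end. The 3p products all differ. Those of Mir7-2 and Mir7b share the seed AACAAGU, while Mir7-1 has AACAAAU. Products of the other families were these:
miR-129-5p: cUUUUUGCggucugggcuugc
miR-129-2-3p: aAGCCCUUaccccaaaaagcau
miR-218-5p: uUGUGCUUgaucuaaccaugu
miR-218-1-3p: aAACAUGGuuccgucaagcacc
miR-218-2-3p: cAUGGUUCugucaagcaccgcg

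Mir129-1 and Mir129-2 encode the same miR-129-5p, and Mir218-1 and Mir218-2 the same miR-218-5p. The sequences used list no 3p product of Mir129-1, which does not show that it has none, so the 10 products may be incomplete for it. Of the 10 products, 7 occurred at 1 place among 2202 annotated hairpins of GENCODE M21 and 3 at 2 places, where overlapping hairpins on either strand count as 1 place. The 3 are miR-7a-5p, miR-129-5p and miR-218-5p. Mir7b is therefore the only member whose products were each found at a single place. The search covered annotated hairpins and not the genome.

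In the hairpins of the miR-129 and miR-218 families, capitals mark bases within a stretch of 18 or more that is also in the other copy. They are shown because the copies differ in how much of the hairpin tells them apart:
Mir129-1: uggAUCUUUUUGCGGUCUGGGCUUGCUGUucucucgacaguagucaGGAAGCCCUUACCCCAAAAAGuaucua
Mir129-2: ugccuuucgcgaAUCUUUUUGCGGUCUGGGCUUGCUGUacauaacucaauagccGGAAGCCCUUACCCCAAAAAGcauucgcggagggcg
Mir218-1: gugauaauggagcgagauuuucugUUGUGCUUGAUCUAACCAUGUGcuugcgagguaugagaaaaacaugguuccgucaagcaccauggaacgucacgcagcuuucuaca
Mir218-2: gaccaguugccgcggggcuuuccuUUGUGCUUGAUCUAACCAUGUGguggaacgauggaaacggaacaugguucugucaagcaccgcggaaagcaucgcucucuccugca

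In the miR-129 pair, 47 bases of each hairpin lay in such stretches, which is 64.4% of Mir129-1 and 52.2% of Mir129-2. They cover the whole of miR-129-5p and 19 of the 22 bases of miR-129-2-3p. In the miR-218 pair, 22 bases of each hairpin did, and they cover miR-218-5p but no base of either 3p product. Mir7-1 and Mir7-2 had 24 such bases each, over miR-7a-5p, and Mir7b had 0. Over their whole length, the copies were 68.8% identical for Mir7-1 and Mir7-2, 68.1% for the miR-129 pair and 70.9% for the miR-218 pair. Mir7b was 66.9% identical to Mir7-1 and 64.3% to Mir7-2.

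**Figure D1:**
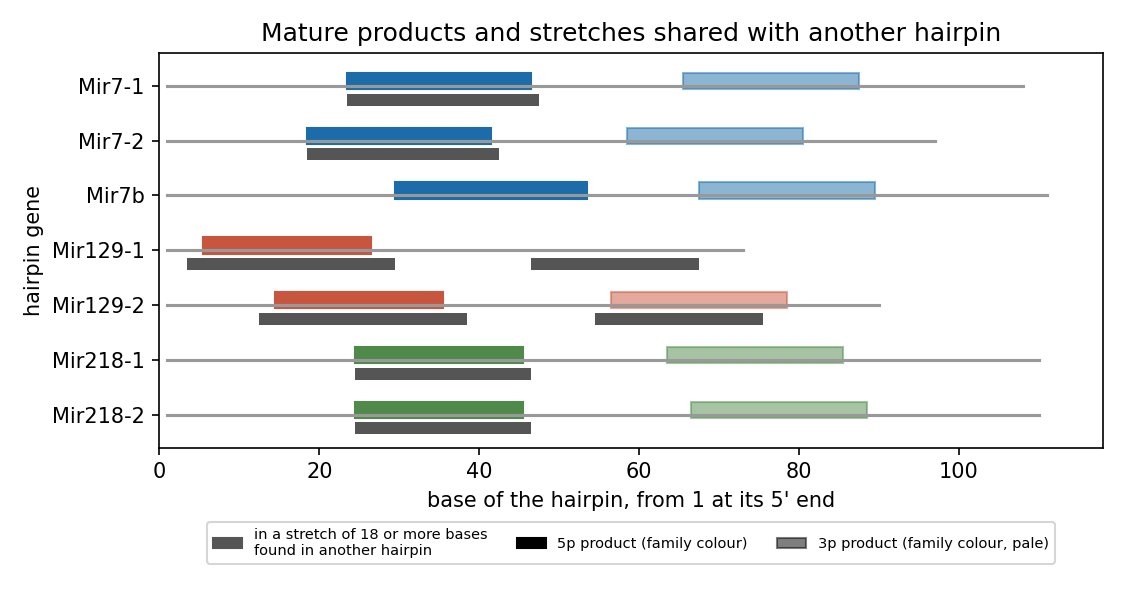
Each hairpin is drawn to scale from base 1 at its 5′ end, with 5p products in full colour, 3p products pale, and grey bars under the bases that lie in a stretch of 18 or more found in another annotated hairpin. Grey bars lie under the 5p product of every hairpin but Mir7b, and under most of the 3p product of Mir129-2. No 3p product is drawn for Mir129-1, because the sequences used list none for it.

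The tables count reads per hairpin, so both arms are pooled, and they tally reads that map to several places apart from the genes. That tally held 43.0% of all reads in pup 1 and 43.5% in pup 3. A read of a whole miR-7a-5p, miR-129-5p or miR-218-5p matches more than 1 hairpin, and how many such reads the tally holds was not tested. The counts of every member but Mir7b are therefore uncertain as levels of the family, and they can be too low. Across the series, 582 hairpins had exactly 2 products in the RefSeq table. The median of their mean levels was 2.77 counts per 1000000 assigned reads (CPM) for the 508 with both products at 1 place and 24.8 CPM for the 56 with 1 product found elsewhere, 5 members among them. It was 0 CPM for the 18 with both found elsewhere. These groups of hairpins can differ in more than shared products, so what a shared product does to a count was not tested.

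The hairpins lie on 7 chromosomes, and 5 lie inside a longer gene on the same strand (coordinates on GRCm38). Mir218-1 (ENSMUSG00000065603.1) lies on chromosome 5 from 48223942 to 48224051, 240804 bases into Slit2. It is intronic in all 7 overlapping Slit2 transcripts, in intron 16 of 38 in the longest by exons. Mir218-2 (ENSMUSG00000065583.1) lies on chromosome 11 from 35616816 to 35616925, 495592 bases into Slit3, in intron 14 of 35. Mir7-1 (ENSMUSG00000065434.1) lies on chromosome 13 from 58392779 to 58392886, on the minus strand, in the last intron, 17 of 17, of Hnrnpk, which encodes an RNA-binding protein.

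The miR-129 hairpins lie in noncoding genes. Mir129-2 (ENSMUSG00000065511.1) lies on chromosome 2 from 94241364 to 94241453, on the minus strand, in intron 2 of 5 of Mir670hg. Mir129-1 (ENSMUSG00000065469.1) lies on chromosome 6 from 29022619 to 29022691 and overlaps an exon of the long noncoding RNA Gm3294. The other miR-7 hairpins lie in no annotated gene. Mir7-2 (ENSMUSG00000065609.1), on chromosome 7 from 78888277 to 78888373, ends 7481 bases before Aen, and Mir7b (ENSMUSG00000065491.1), on chromosome 17 from 56242988 to 56243098, starts 183 bases after the long noncoding RNA AC026385.1.

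Of 22470992 reads from pup 1, 9037087 fell to a gene, and of 18798326 reads from pup 3, 7678662 did. All 7 members had 10 or more counts in both pups, as did 433 of the 1973 genes. Levels are given as CPM and were not divided by hairpin length, since a read of this size class spans a product and not a hairpin. Reads are not independent molecules without molecular identifiers, which the labels do not name, so intervals on counts cover counting error only.

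By reads assigned to 1 hairpin, which leave out those mapping to several places, miR-7 was the most abundant of the families, and Mir7b led it. Mir7b had 23974 counts in pup 1 and 23166 in pup 3, which are 2653 and 3017 CPM, with a mean of 2835 ± 257 CPM (SD, n = 2). It ranked 68th of 1973 genes by mean CPM. Mir7-1, the copy in Hnrnpk, had 5103 and 5107 counts, or 565 and 665 CPM, with a mean of 615 ± 71.0 CPM. The third copy, Mir7-2, had 4900 and 2633 counts, or 542 and 343 CPM, with a mean of 443 ± 141 CPM. Mir7b was thus above the other copies in both pups, and the values of Mir7-1 and Mir7-2 lay close together in pup 1 and apart in pup 3.

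In the miR-129 family, Mir129-2 was the higher copy in both pups. Mir129-2 had 17516 and 6912 counts, or 1938 CPM in pup 1 and 900.2 CPM in pup 3, with a mean of 1419 ± 734 CPM (SD, n = 2). Mir129-1 had 4365 and 2071 counts, or 483 and 269.7 CPM, with a mean of 376 ± 151 CPM. Both copies were higher in pup 1.

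The miR-218 hairpins had the lowest counts of the 7. Mir218-2, in Slit3, had 738 and 571 counts, or 81.7 CPM in pup 1 and 74.4 CPM in pup 3, with a mean of 78.0 ± 5.16 CPM (SD, n = 2). Mir218-1, in Slit2, had 146 and 122 counts, or 16.2 and 15.9 CPM, with a mean of 16.0 ± 0.189 CPM. The pups were close for both copies. A read that spans only miR-218-5p, printed above, matches both copies, so these values need not give the level of miR-218-5p.

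**Figure D2:**
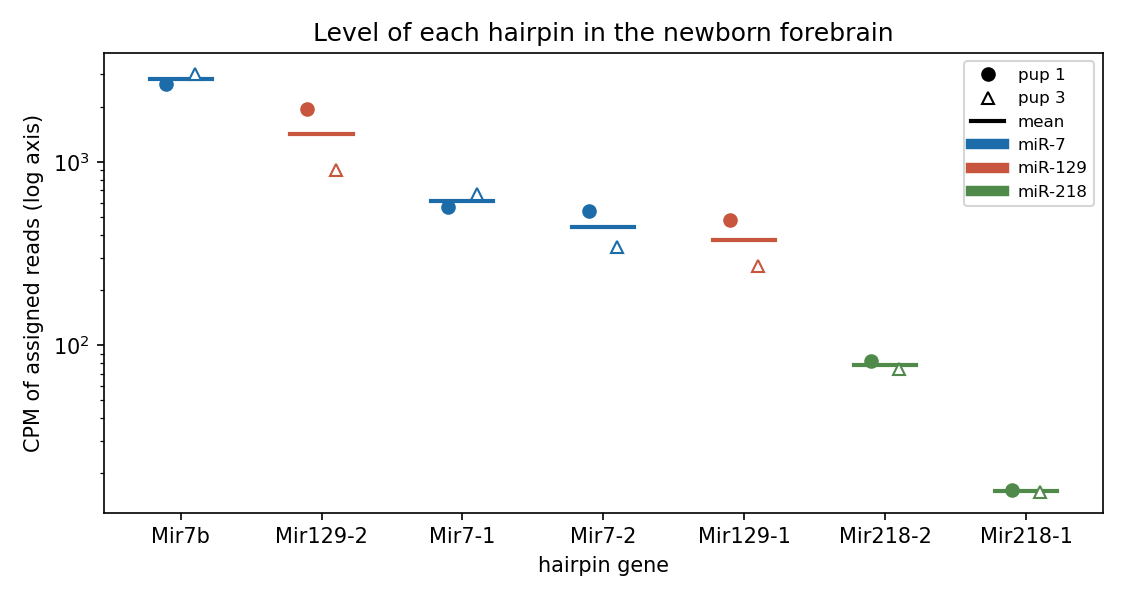
CPM of each hairpin (log axis), with a filled circle for pup 1, an open triangle for pup 3 and a bar at their mean. Mir7b is highest at a mean of 2835 CPM and Mir218-1 lowest at 16.0 CPM, and the pups lie farthest apart for Mir129-2, Mir129-1 and Mir7-2.

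By mean CPM of reads assigned to 1 hairpin the order was Mir7b, Mir129-2, Mir7-1, Mir7-2, Mir129-1, Mir218-2 and Mir218-1. Only the neighbours Mir7-2 (343 to 542 CPM) and Mir129-1 (269.7 to 483 CPM) overlapped between the pups. Mir7-1 and Mir7-2 did not overlap, but by little, since the lowest value of Mir7-1 was 565 CPM and the highest of Mir7-2 was 542 CPM. By rank, the members spanned places 68 to 290 of 1973. Summed, the miR-7 family held 3892 ± 188 CPM, the miR-129 family 1796 ± 885 CPM and the miR-218 family 94.0 ± 5.35 CPM (each SD, n = 2).

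**Figure D3:**
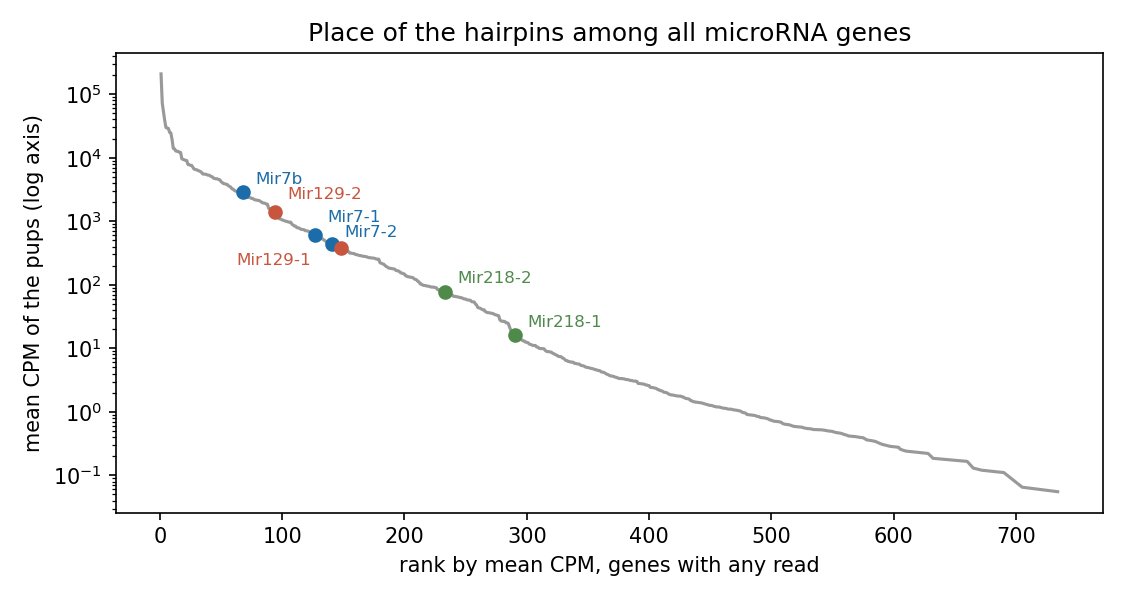
Mean CPM of the pups (log axis) against rank for the 775 genes with any read (grey line), with the 7 hairpins marked by family colour. Mir7b stands at rank 68 and Mir129-2 at 94, Mir7-1, Mir7-2 and Mir129-1 at 127 to 148, and the miR-218 hairpins at 233 and 290.

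Within each family 1 copy held most of the counts assigned to 1 hairpin, and it was the same copy in both pups. Shares of these counts need not be shares of the copies' output. Mir218-2 held 83.5% of the miR-218 counts in pup 1 (95% Wilson interval 80.9 to 85.8) and 82.4% in pup 3 (79.4 to 85.1), so the intervals of the pups overlapped. There were 5.05 counts of Mir218-2 per count of Mir218-1 in pup 1 (95% exact interval 4.23 to 6.08) and 4.68 in pup 3 (3.84 to 5.74). By reads assigned to 1 hairpin, the Slit3 copy was thus ahead of the Slit2 copy in both pups, by factors whose intervals overlap. A read of a whole miR-218-5p matches both copies, so these factors need not be those of the copies' output.

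Mir129-2 held 80.1% of the miR-129 counts in pup 1 (79.5 to 80.6) and 76.9% in pup 3 (76.1 to 77.8). Mir7b held 70.6% of the miR-7 counts in pup 1 (70.1 to 71.0) and 75.0% in pup 3 (74.5 to 75.4). The shares of Mir129-2 and Mir7b differed between the pups by more than counting error, with intervals that do not overlap, by -3.11 and 4.40 percentage points from pup 1 to pup 3. The largest difference was that of Mir7-2, whose share was 14.4% in pup 1 (14.1 to 14.8) and 8.52% in pup 3 (8.21 to 8.84). Mir7-1 held 15.0% (14.6 to 15.4) and 16.5% (16.1 to 16.9). Counts of Mir7-1 and Mir7-2 were nearly equal in pup 1, at 1.04 of Mir7-1 per count of Mir7-2 (1.00 to 1.08), and stood at 1.94 (1.85 to 2.03) in pup 3. These shares do not depend on how the libraries are scaled, but they can depend on which reads map to several places. A read of a whole miR-7a-5p matches both Mir7-1 and Mir7-2, while the products of Mir7b were each found at a single place. The share of Mir7b can therefore be too high.

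**Figure D4:**
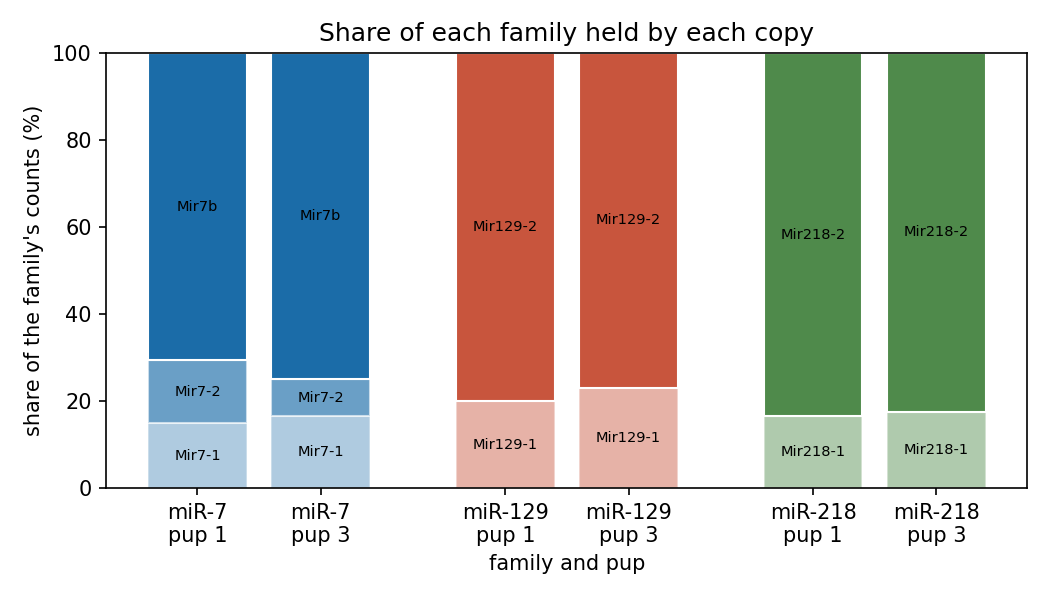
Share (%) of each family's counts assigned to 1 hairpin that each copy held, in 1 bar per family and pup. Mir7b, Mir129-2 and Mir218-2 hold most of each bar in both pups, and the share of Mir7-2 is 14.4% in pup 1 and 8.52% in pup 3.

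Between the pups, copies of miR-7 differed in opposite directions, both copies of miR-129 were lower in pup 3, and neither copy of miR-218 passed the test. Counts were scaled by TMM factors, and each gene was tested by a two-sided exact binomial test of pup 3 against pup 1 with Benjamini-Hochberg adjustment over 460 genes. Of the 7 members, 2 were higher in pup 3, 3 were lower and 2 did not pass. Over all genes tested, 63% passed at an adjusted p of 0.05, 30.2% higher and 32.8% lower, so the members' 5 of 7 is near the share over all tested genes. Most genes that did not pass ranked below all members in mean CPM, where the test has less power. Among genes as abundant as the members, a larger share therefore passed. The shares over all tested genes given beside the lists below carry the same limit. The test sets 1 library against another with counting error alone, and says nothing of the spread among pups in general.

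Mir129-2 stood at 0.534 of its pup 1 level in pup 3 (95% exact interval 0.519 to 0.549), a log2 ratio of -0.91, and 38 of the 460 tested genes had a lower ratio. Mir129-1 stood at 0.642 (0.608 to 0.676), a log2 ratio of -0.64 (exact binomial test, adjusted p = 2.63e-64), with 76 genes lower. By reads assigned to 1 hairpin, both copies of miR-129, on different chromosomes, were therefore lower in pup 3, and Mir129-2 by more. The copies share identical stretches over their products, which cover 19 of the 22 bases of miR-129-2-3p. A read that lies within such a stretch matches both copies, and how reads were assigned to a copy was not tested. The ratios of the copies need not be independent. Mir670, which lies in the same host gene as Mir129-2 at a distance of 19847 bases and was named for that position after its values were seen, had 76.1 and 54.8 CPM. Its log2 ratio was -0.27 (exact binomial test, adjusted p = 0.00394).

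Mir7-1 was 1.35-fold higher in pup 3 (1.30 to 1.41; exact binomial test, adjusted p = 7.78e-52), and Mir7b was 1.31-fold higher (1.28 to 1.33; adjusted p = 2.30e-183). Mir7-2 was lower, at 0.727 of its pup 1 level (0.693 to 0.762; exact binomial test, adjusted p = 2.30e-40). The family sum was 1.23-fold higher in pup 3 (1.21 to 1.25), as Mir7b outweighs the other copies. Mir218-1 had a log2 ratio of 0.18 (-0.18 to 0.53; exact binomial test, adjusted p = 0.398) and Mir218-2 of 0.07 (-0.10 to 0.22; adjusted p = 0.496). At this depth the interval of Mir218-1 spans 0.881 to 1.45 as a fold.

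The members' differences were of the size seen over all genes. Their median log2 ratio was 0.07, against -0.02 over the 460 genes, and their median absolute log2 ratio was 0.44, against 0.41. The biological coefficient of variation between the pups, estimated by edgeR across 301 genes that reached 10 CPM in each pup, was 0.304. Scaling by total counts moved the median ratio of all tested genes by -0.20. Over all genes, 21.3% were then called higher and 44.8% lower. Under this scaling the 5 calls of members kept their direction, with log2 ratios of 0.24 for Mir7-1, 0.19 for Mir7b, -0.66 for Mir7-2, -0.84 for Mir129-1 and -1.11 for Mir129-2. Those of Mir218-1 and Mir218-2 turned to -0.02 and -0.13 and did not pass.

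**Figure D5:**
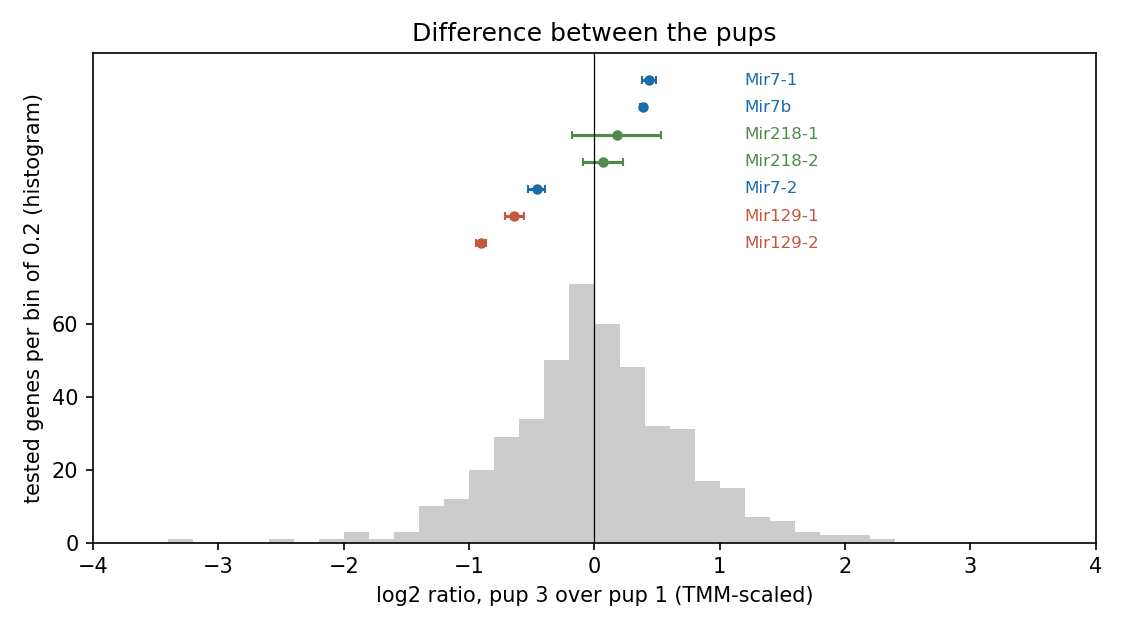
Grey bars count the 460 tested genes by log2 ratio of pup 3 over pup 1 after TMM scaling, and points above them give the 7 hairpins with 95% exact binomial intervals, which cover counting error only. Mir129-2 and Mir129-1 lie left of 0 at -0.91 and -0.64 with Mir7-2 at -0.46, Mir7-1 and Mir7b lie right of 0, and the intervals of both miR-218 hairpins cross 0.

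All reads of all 7 hairpins lay on the annotated strand. There was no read on the opposite strand in either pup, which allows a share of up to 0.0125% for Mir7b in pup 1 and, at the lowest depth, 2.46% for Mir218-1 in pup 3, by 3 counts of the total. For comparison, the opposite strand took 2.69% of the assigned reads of pup 1 and 1.91% of those of pup 3 over all genes. GENCODE M21 also places a hairpin, Mir129b, on the strand opposite to Mir129-2, and no read assigned to Mir129-2 lay on that strand.

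The folded hairpins differed in predicted free energy, which also grows with length. The minimum free energy from RNAfold was lowest for Mir129-2 (-48.0 kcal/mol over 90 bases) and highest for Mir129-1 (-31.0 over 73 bases). Of the miR-7 hairpins, Mir7b, which had the most counts, had the highest energy (-35.0 over 111 bases), above Mir7-2 (-40.5 over 97 bases) and Mir7-1 (-46.8 over 108 bases). Mir218-2 had -42.3 and Mir218-1 -36.6 kcal/mol over 110 bases each. Per base, Mir129-2 was still lowest at -0.533 kcal/mol, while Mir129-1 stood at -0.425, and Mir7b (-0.315) and Mir218-1 (-0.333) were highest. Both in total and per base, the copy with more counts had the lower energy in the miR-129 and miR-218 families and not in the miR-7 family.

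Other microRNAs share few seeds with the members. In the RefSeq table, the seed of miR-218-5p is also that of miR-7002-3p, and the seed of miR-218-1-3p is also that of miR-496b. Mir7002 had 2 counts in each pup and Mir496b had 0. The other seeds of the 3 families were found in no product of another gene.

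The genes nearest to the leading member of each family in log2(CPM + 1) over both pups were found by distance, with only 2 libraries to compare. Nearest to Mir7b were Mir128-2 (2539 and 3010 CPM, distance 0.06), of the brain-enriched miR-128 family, and Mir130b (2840 and 3083 CPM, distance 0.10). Nearest to Mir129-2 were Mir187 (1887 and 1299 CPM, distance 0.53) and Mir370 (1381 and 691 CPM, distance 0.62). Nearest to Mir218-2 were Mir669c (86.6 and 72.3 CPM, distance 0.09) and Mir702 (88.3 and 71.6 CPM, distance 0.12).

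Summed over a longer list, other neuronal microRNAs stood higher than the 3 families. The family sums cover 3 hairpins for miR-7 and 2 each for miR-129 and miR-218, so these sums do not rank single hairpins. Of 19 listed hairpins, 18 were matched, with a summed level of 58303 CPM in pup 1 and 67432 CPM in pup 3. Mir137, a regulator of neuronal maturation, led with 24345 and 33595 CPM, followed by Mir149 with 14774 and 13280 CPM. Mir124a-1, the highest of the Mir124a hairpins, had only 4.98 and 14.7 CPM. By mean CPM, Mir9-2 was the lowest of those matched, with 1.33 and 1.56 CPM, while Mir9-3 had 382 and 684 CPM. How far reads that map to several places lower such values was not tested. By the exact binomial test 9 of the 18 were higher in pup 3, 4 were lower and 5 did not pass, with a median log2 ratio of 0.31, against -0.02 over all tested genes, of which 30.2% passed as higher and 32.8% as lower. When scaled by total counts, 7 passed as higher and 8 as lower, and the median was 0.11, against 21.3% and 44.8% of all tested genes. The label neuronal rests on what is known of these microRNAs, since in a whole forebrain more cells of a type and more RNA per cell cannot be told apart.

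Markers of other cells were present in both pups, and their part in the members' levels was not tested. The endocrine and epithelial list, which includes microRNAs of pituitary and olfactory epithelium, summed to 3999 CPM in pup 1 and 10744 CPM in pup 3. Of its 6 members 5 were higher in pup 3 and 1 was lower, where 63% of all tested genes passed, 30.2% as higher and 32.8% as lower. It was led by Mir429 (2269 and 5508 CPM) and Mir200b (820.1 and 3040 CPM), while Mir375, a microRNA of pituitary and pancreatic islets, had 314 and 245 CPM. The Hox list, which marks tissue behind the forebrain such as the hindbrain where miR-218 is known to be expressed, summed to 196 and 148 CPM. It was led by Mir10b (96.2 and 94.3 CPM) and Mir10a (83.9 and 47.5 CPM). Of its 5 tested members, 1 was higher in pup 3, 3 were lower and 1 did not pass; over all tested genes 63% passed. Under total counts 0 were higher and 3 lower, against 21.3% and 44.8% of all tested genes. Mir196a-1, also of this list, had no read in either pup.

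Mir126a, the only endothelial hairpin matched of 2 listed, had 40491 and 36865 CPM, a log2 ratio of 0.06 that passed as higher and was -0.14 and lower under total counts. The choroid plexus and multiciliated list summed to 13902 and 11022 CPM over 7 hairpins. It was led by Mir449a (6310 and 4707 CPM) and Mir204 (5253 and 3824 CPM). Of the 7, 1 was higher in pup 3, 3 were lower and 3 did not pass. Over all tested genes 63% passed, 30.2% as higher and 32.8% as lower. The erythroid list, with 2 of 4 symbols matched, summed to 228 and 370 CPM, with Mir451a higher (192 and 350.2 CPM) and Mir144 lower in pup 3 (36.3 and 19.8 CPM). The symbols not matched were Mir486a and Mir486b. A gene under the symbol Mir486 had 11.7 and 9.12 CPM, did not pass and is not in that sum.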

How the data were processed

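Small RNA of 2 newborn mouse forebrains was sequenced, and the authors deposited whole-number read counts for each microRNA gene on mm10 with annotation M4, per the file headers and notes. Their aligner and counter, not given in the sources used here, decide which reads count as mapping to several places. The first count column was used; in all 1973 genes it equals the sum of the other columns, read here as the sense and opposite strands. Tallies that name no gene (unmapped, multimapped and in no gene) stayed out of library sizes: 14.9%, 43.0% and 1.85% of reads in pup 1, and 14.4%, 43.5% and 1.26% in pup 3. Separate pups are named, but not litter or batch.

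Names and positions came from GENCODE M21 on GRCm38 (1894 of 1973 identifiers matched). Ratios used counts with 0.5 added and TMM factors of edgeR 4.0.16 (1.07 and 0.933). Genes with 20 or more counts in total were tested. Hairpins were aligned with Biopython 1.88 and folded with RNAfold 2.7.2. The binomial test was tried on simulated counts with counting error only, which says nothing of its error rate where pups also differ. The dispersion estimate was tried on simulated counts with a known spread. Alternatives were DESeq2 1.42.0 size factors, total counts, TMM-scaled CPM, all reads as denominator, the sense column, other count minimums and each pup alone. Named genes were all members, the 2 nearest genes to each family's leader, the 2 highest of each list and overlapping or neighbouring genes. Mir670, Mir375, Mir196a-1, Mir7002, Mir496b, Mir124a-1, Mir9-2, Mir9-3 and Mir486 fall outside this rule and were chosen after their values were seen. Members and lists were chosen with earlier results of these data known. Tests ran with scipy 1.17.1 in Python 3.11.15, tables with pandas 2.3.3, and edgeR in R 4.3.3.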

Additional observations from a re-analysis of the deposited data

How the results depend on the processing

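Beside leaving out a pup, 33 of 35 log2 ratios of members kept their direction and their side of the threshold, and of 14 levels, shares and spread estimates all but 3 family sums did not move beyond the spread between pups or, for the spread itself, moved little. Part of this agreement was fixed beforehand. Another count minimum leaves a member's counts and ratio as they were and changes only the adjustment of p. The sense column holds the same member counts as the column used, so the shares could not move there. With all reads as denominator, tallies included, the family sums were 1578 CPM for miR-7, 726 CPM for miR-129 and 38.1 CPM for miR-218, because the denominator grew. Scaled by total counts, the log2 ratios of Mir218-1 and Mir218-2 were -0.023 (exact binomial test, adjusted p = 0.931) and -0.13 (adjusted p = 0.138), each reversed and neither passing. Over all genes total counts gave 98 higher and 206 lower calls, against 139 and 151 under TMM scaling. With 1 pup left out, which with 2 pups says nothing of stability, the family sums were 3760 to 4025 CPM for miR-7, 1170 to 2421 CPM for miR-129 and 90.3 to 97.8 CPM for miR-218. The shares were 70.6% to 75.0% for Mir7b, 76.9% to 80.1% for Mir129-2 and 82.4% to 83.5% for Mir218-2. The miR-129 level thus rests on which pup is read. The counts of members called were 2 higher and 3 lower under each scaling tried. They were the same under each count minimum and in the sense column, which leave the members' own counts unchanged and so add little. No paired analysis was possible because the samples form a single group. Depth limits the miR-218 hairpins most.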
